A study of Mus musculus with 6 samples.

Results

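SOX proteins are transcription factors that bind DNA through an HMG box, a domain that inserts into the minor groove and bends the helix. The genes examined were 10 members of the mouse family: Sox2, Sox3 and Sox21 of the SoxB group, Sox4, Sox11 and Sox12 of SoxC, Sox9 of SoxE, and Sox7, Sox17 and Sox18 of SoxF. They were chosen by symbol, and all 10 were found among the 22477 gene symbols of the count table. RNA was sequenced from 2 samples of normal lung and 4 lung tumors, 1 mouse each, of the RPM model of small cell lung cancer. All 6 mice carried floxed Rb1 and Trp53 and a Cre-activated Myc T58A allele, and the labels list the Cre adenovirus Ad5CGRP-Cre for normal and tumor samples alike. The virus was given into the trachea at 8 weeks of age, and its CGRP promoter directs Cre to pulmonary neuroendocrine cells. The labels do not give the age at sampling or a drug arm for these samples, although the study also treated tumor-bearing mice. Libraries carry the numbers of their titles, normal 1 and 2 and tumor 3 to 6.

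SoxB1 proteins such as Sox2 keep neural progenitors undifferentiated, and Sox2 also marks the airway epithelium of the lung. The SoxC proteins act after them, when neuronal genes are switched on, and Sox21 is a SoxB2 repressor that opposes SoxB1 activity. SoxF proteins specify arterial, venous and lymphatic endothelium, while Sox9 marks the distal tip of the developing lung and directs cartilage formation.

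Total counts were 99122494 and 91049413 in normal 1 and 2 and ranged from 54735438 to 70817440 in tumors. Levels are given as CPM, the counts scaled to a common library size, on TMM-scaled library sizes, and differences as log2 fold change of tumor over normal lung, with its standard error. A gene passed at an adjusted p below 0.05 in the quasi-likelihood test of edgeR over all 18027 genes tested. The 14 neuroendocrine markers summed to 1404 to 2072 CPM in tumors and to 29.5 and 40.8 CPM in normal 1 and 2. The 10 alveolar markers summed to 27113 and 24675 CPM in normal 1 and 2 and to 106 to 817 CPM in tumors. Both groups thus held the defining markers of their labels. None of the 10 alveolar markers was higher in normal 2 than in normal 1. Higher there were 11 of the 14 neuroendocrine, 10 of the 12 early neuronal and 7 of the 8 Schwann cell genes. The share over all genes is not given here. Sox1, Sox21, Pou3f4, Elavl4 and Prox1, described here, were also higher in normal 2, and whether RNA of tumor or neuroendocrine cells in that library lowers their folds was not tested.

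The HMG box is what makes these 10 genes a family, and the following 27 coding bases at the start of the box are shown because their likeness bears on how reads can be assigned. They were read from GENCODE M21 transcripts on GRCm38, lie within a coding exon in every gene, and are written 5′ to 3′ on the coding strand. Capitals mark the 7 positions at which the members do not all share a base. The stretch was found with a search pattern that fixed the other 20 positions, so their likeness was set in advance.
Sox2, chr3:34650548-34650574, plus strand: AgGccCatgaaCgcCttCatggtAtgg
Sox3, chrX:60892969-60892995, minus strand: CgAccCatgaaCgcGttCatggtGtgg
Sox21, chr14:118235582-118235608, minus strand: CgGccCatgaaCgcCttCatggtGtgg
Sox4, chr13:28952815-28952841, minus strand: CgGccCatgaaCgcCttTatggtGtgg
Sox11, chr12:27342232-27342258, minus strand: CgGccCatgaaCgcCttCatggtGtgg
Sox12, chr2:152397549-152397575, minus strand: CgGccGatgaaCgcGttCatggtGtgg
Sox9, chr11:112782903-112782929, plus strand: CgAccCatgaaCgcCttCatggtGtgg
Sox7, chr14:63943894-63943920, plus strand: CgGccCatgaaTgcCttCatggtGtgg
Sox17, chr1:4493173-4493199, minus strand: CgGccGatgaaCgcCttTatggtGtgg
Sox18, chr2:181671255-181671281, minus strand: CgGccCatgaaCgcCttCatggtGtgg
The stretch was identical in Sox21, Sox11 and Sox18, members of 3 different groups, of which Sox21 and Sox11 rose in tumors and Sox18 fell. It was the same in Sox1, which is not among the 10. The 10 members had 8 distinct versions of it. Over whole transcripts the longest identical run was 13 to 48 bases for the 45 pairs of members, with a median of 20. The longest was between Sox4 and Sox11. Reads inside such runs cannot be told apart, and the read length is not given in the sources used here. In GENCODE M21, Sox21, Sox4 and Sox17 share 713, 2616 and 804 exonic bases with genes on the opposite strand that are not rows of the count table, so their counts are uncertain to that extent.

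The 10 genes did not move as one family. Sox21, Sox11 and Sox12 rose in tumors, Sox7, Sox17 and Sox18 fell, and Sox2, Sox3, Sox4 and Sox9 did not pass. All 10 were kept by the filter on low counts, Sox3 only through the tumor libraries. The 6 called of 10 stood against 63.9% of all genes tested, with 31.3% higher and 32.6% lower, so the number called was near the background. In SoxF 3 of 3 fell, and in SoxB and SoxC 3 of 6 rose and none fell. The rises were 1 of 3 in SoxB and 2 of 3 in SoxC. The members were chosen with earlier results of these data known, so these counts only describe them and carry no test. The median log2 fold change was 2.22 for SoxB and SoxC and -5.11 for SoxF, against 0.02 for all genes tested. The 2.22 includes Sox3, which could be tested only because tumors held more. With at least 1 CPM required in every library of a group, which leaves Sox3 out, that median was 2.23. The SoxB and SoxC median was 1.58 without normal 1. Sox9, the remaining member, stood with neither set.

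**Figure D1:**
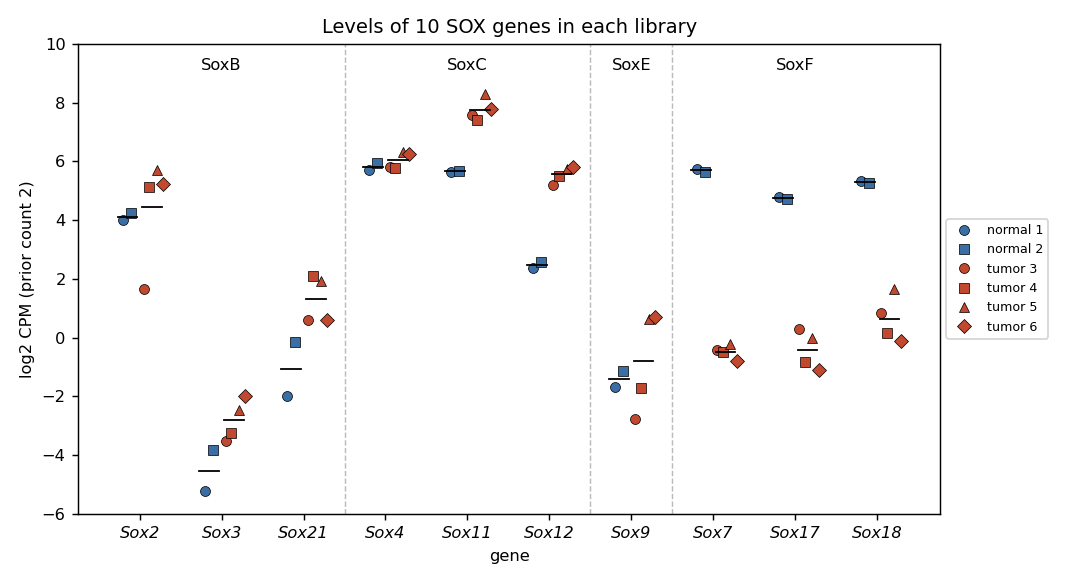
Level of each of the 10 SOX genes in each library, as log2 CPM with a prior count of 2. Points are libraries, short lines are group means and dashed lines separate the SOX groups. The 4 tumors lie below both normal libraries for Sox7, Sox17 and Sox18 and above both for Sox3, Sox21, Sox11 and Sox12, while tumor 3 stands below the others for Sox2.

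SoxF genes showed the sharpest differences among the members. Sox7, a regulator of blood and vessel formation, was at 53.5 and 50.0 CPM in normal 1 and 2, and at 0.715, 0.687, 0.834 and 0.554 CPM in tumors 3 to 6. The groups were far apart, and the tumors lay close together. This was a 74.0-fold lower level (log2 fold change -6.21 ± 0.24, edgeR adjusted p = 2.46e-05). Sox17, needed for arterial identity, was at 27.9 and 26.6 CPM in normal 1 and 2, against 1.21, 0.530, 0.964 and 0.434 CPM in tumors 3 to 6. Tumors 4 and 6 were the lowest for this gene. It was 34.6-fold lower (-5.11 ± 0.45, edgeR adjusted p = 0.000179). Sox18, which starts lymphatic development, was at 40.2 and 38.8 CPM in normal 1 and 2, and at 1.76, 1.08, 3.10 and 0.898 CPM in tumors 3 to 6. Tumor 5 held the most Sox18 and tumor 6 the least. The gene was 23.0-fold lower (-4.53 ± 0.50, edgeR adjusted p = 0.000424).

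The mix of the 3 SoxF genes also differed between normal lung and tumors. Sox7 made up 44.0% and 43.3% of their summed CPM in normal 1 and 2 but 17.0% to 29.9% in tumors. Sox18 made up 33.0% and 33.6% in normal lung and 47.0% to 63.3% in tumors. The groups did not overlap for either share, and this comparison, made after the values were seen, was not tested. The shares in tumors 3 to 6 rest on few counts, 48, 35, 64 and 37 of Sox7 and 118, 55, 238 and 60 of Sox18. The share of Sox17 was 22.9% and 23.0% in normal lung and 19.7% to 32.8% in tumors, on both sides of normal lung.

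Endothelial markers moved with the SoxF genes. All 20 endothelial markers fell, against 32.6% of all genes, with a median log2 fold change of -5.44. Among them were Kdr, a VEGF receptor, at 71.3-fold lower and Eng, a TGF-beta co-receptor, at 58.4-fold lower. Sox7 fell by more than 17 of the 20 markers, Sox17 by more than 7 and Sox18 by more than 5. The marker sum went from 11165 and 10068 CPM in normal 1 and 2 to 247, 304, 250 and 141 CPM in tumors 3 to 6, which is 45.2-fold lower between the group means. The SoxF sum was 122 and 115 CPM in normal lung and 3.68, 2.30, 4.90 and 1.88 CPM in tumors, 37.1-fold lower. The SoxF sum was 1.09% and 1.15% of the marker sum in normal 1 and 2, and 1.49%, 0.756%, 1.96% and 1.34% in tumors 3 to 6. Tumor 4 thus lay below normal lung by this ratio and the other 3 tumors above it. The fall was not particular to endothelium. Also called lower were 10 of 10 alveolar, 7 of 10 fibroblast and smooth muscle and 6 of 7 leukocyte markers. Their median log2 fold changes were -5.75, -1.76 and -2.98, and none of them was called higher. In whole tissue, fewer endothelial cells and less SoxF RNA per endothelial cell cannot be told apart.

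**Figure D2:**
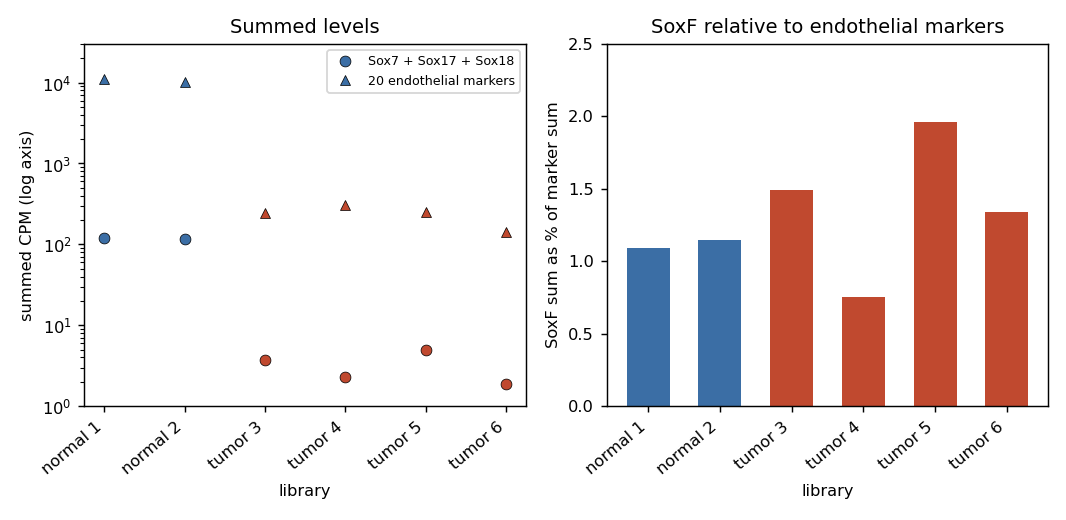
Left, summed CPM of Sox7, Sox17 and Sox18 (circles) and of 20 endothelial markers (triangles) in each library, on a log axis, with normal lung in blue and tumors in red. Right, the SoxF sum as a percentage of the marker sum, which is 1.09% and 1.15% in normal lung and 0.756% to 1.96% in tumors.

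Genes of vessel type, some of which SoxF proteins control, were lower with 1 exception. Of 12 such genes 11 fell and 1 rose, against 32.6% lower and 31.3% higher among all genes (median log2 fold change -4.33). Ephb4, the venous ephrin receptor, was 34.5-fold lower, Notch1, of arterial specification, 24.7-fold lower and Flt4, the lymphatic VEGF receptor, 22.1-fold lower. The gene that rose was Prox1, a target of Sox18 in lymphatic cells and also a gene of neuroendocrine cells. Its levels were 1.89 and 6.57 CPM in normal 1 and 2 and 137, 84.6, 152 and 165 CPM in tumors 3 to 6. Its log2 fold change was 4.99 ± 0.65 (edgeR adjusted p = 0.000755), or 4.34 without normal 1 and 6.14 without normal 2.

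SoxC held the most abundant member in tumors. Sox11, which acts in newly formed neurons, was at 50.4 and 51.3 CPM in normal 1 and 2, and at 191, 170, 311 and 222 CPM in tumors 3 to 6. Every tumor exceeded both normal libraries, and tumor 5 was the highest. The gene rose 4.40-fold (2.14 ± 0.29, edgeR adjusted p = 0.000879). Sox12, the SoxC protein with the weakest activation of target genes, was at 5.18 and 5.94 CPM in normal lung and at 36.3, 45.9, 53.0 and 56.1 CPM in tumors 3 to 6. Its groups did not overlap, and the tumors spanned 1.54-fold. It rose 8.60-fold (3.10 ± 0.25, edgeR adjusted p = 0.000138). Sox4, a SoxC gene also active outside the nervous system, was at 52.6 and 61.2 CPM in normal lung and at 55.7, 55.1, 80.4 and 76.5 CPM in tumors 3 to 6. Tumors 3 and 4 lay between the normal libraries and tumors 5 and 6 above them. The difference did not pass (0.23 ± 0.22, edgeR adjusted p = 0.372), and its estimate stayed between 0.12 and 0.35 under the alternatives run.

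The windows of 250 bases before the start of the 3 SoxC genes are shown because only Sox11 and Sox12 of the group passed the test. They come from RefSeq on GRCm38.p6, are written 5′ to 3′ on the gene's strand, and have matches to the CCAAT box (CCAAT) and the GC box (GGGCGG), on both strands, in capitals.
Sox11, chr12:27342719-27342968, minus strand: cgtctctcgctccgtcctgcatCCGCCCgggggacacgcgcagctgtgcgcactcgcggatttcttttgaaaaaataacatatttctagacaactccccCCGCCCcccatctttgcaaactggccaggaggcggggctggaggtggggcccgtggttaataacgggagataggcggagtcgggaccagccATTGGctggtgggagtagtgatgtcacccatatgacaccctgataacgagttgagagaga
Sox12, chr2:152398047-152398296, minus strand: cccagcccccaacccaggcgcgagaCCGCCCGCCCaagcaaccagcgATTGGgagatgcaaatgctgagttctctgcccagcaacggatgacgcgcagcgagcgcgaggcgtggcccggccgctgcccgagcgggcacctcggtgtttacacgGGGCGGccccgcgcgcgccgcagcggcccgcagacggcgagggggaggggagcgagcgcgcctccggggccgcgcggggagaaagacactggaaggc
Sox4, chr13:28953700-28953949, minus strand: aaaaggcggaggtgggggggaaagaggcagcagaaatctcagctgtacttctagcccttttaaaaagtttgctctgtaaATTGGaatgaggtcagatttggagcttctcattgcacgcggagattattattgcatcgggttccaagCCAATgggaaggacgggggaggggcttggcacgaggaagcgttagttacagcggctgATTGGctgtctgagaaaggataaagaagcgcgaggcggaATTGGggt
The Sox11 and Sox12 windows held 1 CCAAT box each with 2 and 3 GC boxes, and the Sox4 window held 4 CCAAT boxes and no GC box. These motifs did not follow the calls in SoxB. The window of Sox2, which did not pass, held 1 CCAAT box and 2 GC boxes, and that of Sox21, which passed, held neither motif. Over all 32851 promoter windows of the same length, 33.8% held a CCAAT box and 32.7% a GC box. The motif CACGTG, an E-box that Myc binds, had no match in the windows of Sox2, Sox21, Sox4, Sox11 or Sox12, and 6.02% of all windows held it. CAGCTG, an E-box of proneural factors, matched once in Sox11 and once in Sox4, against 13.0% of all windows. The core of SOX sites, ACAAT, had no match in these 5 windows and was in 27.7% of all windows. Matches to different motifs can share end bases. GC content was 58.0% for Sox11, 74.4% for Sox12 and 50.8% for Sox4, with a mean of 53.2% over all windows. For Sox2 and Sox21 it was 72% and 65.2%. The table used has no window for Sox3, Sox7, Sox9, Sox17 or Sox18.

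Most early neuronal genes, several of them SoxC targets, rose with Sox11 and Sox12. Of 12 such genes 9 rose, 1 fell and 2 did not pass (median log2 fold change 6.01). Among all genes tested the shares were 31.3% higher and 32.6% lower. Stmn1, a microtubule regulator, rose 10.8-fold and Map2, a dendritic microtubule protein, 24.9-fold. Elavl4, a neuronal RNA-binding protein, rose by 7.57 ± 0.91, or by 6.83 without normal 1 and 9.07 without normal 2. The list's median was 5.00 without normal 1 and 9.30 without normal 2. Tead2, a Hippo pathway factor described as a SoxC target, was the gene that fell, at 18.7 and 28.2 CPM in normal 1 and 2 and at 2.98, 8.29, 4.75 and 1.88 CPM in tumors 3 to 6. Its log2 fold change was -2.39 ± 0.56 (edgeR adjusted p = 0.009), and its call was lost without normal 2 (-2.08, adjusted p = 0.0614).

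SoxB genes were uneven. Sox2 was at 15.9 and 18.9 CPM in normal 1 and 2, and at 3.16, 35.0, 52.7 and 37.6 CPM in tumors 3 to 6. Tumor 3 lay below both normal libraries and the other 3 tumors above them, a 16.7-fold span among tumors. Over all libraries the gene did not pass (0.89 ± 0.91, edgeR adjusted p = 0.419). Without tumor 3 it did, at a log2 fold change of 1.27 and adjusted p = 0.00801. Of 8 airway markers 4 were lower in tumors, against 32.6% of all genes, and none was called higher. Scgb1a1 of club cells was 264-fold and Foxj1 of ciliated cells 37.5-fold lower in tumors. The 4 that did not pass were the basal cell genes Krt5, Krt14, Krt15 and Trp63, with log2 fold changes of up to 3.75. The 8 markers summed to 29010 and 26200 CPM in normal lung and to 269, 51.7, 132 and 132 CPM in tumors 3 to 6, and Scgb1a1 alone held 25588 and 22586 CPM of the sum in normal lung. None of the 8 was at 0 counts in normal 2, 1 was in normal 1 and 3 were in tumor 4. Their part in the Sox2 level of normal lung was not tested.

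Sox2ot, the long non-coding gene whose intron holds Sox2 on the same strand, was low throughout. It was at 0.325 and 0.324 CPM in normal 1 and 2 and at 0.164, 0.471, 2.80 and 1.51 CPM in tumors 3 to 6. Like Sox2 it was lowest in tumor 3 and highest in tumor 5, and it did not pass (1.93 ± 1.12, edgeR adjusted p = 0.171). Leaving out tumor 5 gave 1.15. The 2 genes share no exonic bases in GENCODE M21.

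Sox21 was at 0.223 and 0.885 CPM in normal 1 and 2 and at 1.49, 4.24, 3.75 and 1.48 CPM in tumors 3 to 6. The groups did not overlap, but normal 2 was 3.96-fold above normal 1. The gene rose by 2.30 ± 0.81 at an edgeR adjusted p of 0.0429. That call was lost without normal 1 (1.62, adjusted p = 0.203), tumor 4 (2.02, adjusted p = 0.0688) or tumor 5 (2.12, adjusted p = 0.0844), and the change was 3.59 without normal 2. Sox3, a SoxB1 gene of the developing brain and pituitary, was close to absent, with 0 and 4 counts in normal 1 and 2 and 4, 4, 12 and 15 counts in tumors 3 to 6. The 0 counts in normal 1 allow up to 0.0305 CPM. The tumors together had 35 counts against 4, 6.39 times as many relative to TMM-scaled library sizes (95% interval 2.28 to 24.7 if each count is an independent molecule). The gene did not pass (edgeR adjusted p = 0.102). Without normal 2, which leaves 0 normal counts, its level in tumors was at least 4.39-fold higher, set by the floor of 3 counts. Sox3 was kept by the filter on low counts only through the tumor libraries, so that rise carries no separate weight. Sox3 and Sox1 transcripts share an identical run of 45 bases, whose part in the Sox3 counts was not tested.

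The SoxB1 gene that rose was Sox1, which is not among the 10. It was at 0.0102 and 1.28 CPM in normal 1 and 2 and at 93.5, 56.7, 104 and 56.6 CPM in tumors 3 to 6. Normal 2 held 119 of the 120 normal counts, and the tumors held 20967. Its log2 fold change was 6.91 ± 1.43 (edgeR adjusted p = 0.00545), or 5.91 without normal 1. Against normal 1 alone, with 1 count, the tumors held 7884 times as many relative to TMM-scaled library sizes (95% interval 1415 to 311435 from counting error).

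Of 8 partner factors of SoxB proteins, 4 rose, none fell, 3 did not pass and Pou3f3 was not tested. Sall4, 1 of the 4, was kept by the filter on low counts only through the tumor libraries. It could be tested only because tumors held more, so the count of 4 cannot be read against the 31.3% of all genes called higher. Chd7, a chromatin remodeler that binds Sox2, was at 57.8 and 60.6 CPM in normal lung and 154 to 244 CPM in tumors (1.80 ± 0.23, edgeR adjusted p = 0.000676). Pou3f4, a POU factor of neural progenitors, went from 0 and 0.453 CPM to 8.50 to 15.1 CPM, a rise of 5.68 ± 1.45, or 4.66 without normal 1. Against normal 1 alone, with 0 counts, it was at least 379-fold higher by the floor of 3 counts. Only 2 genes were called higher without normal 1, with limma voom or with at least 1 CPM required in a whole group. With no filter, or without normal 1, tumor 4, tumor 5 or tumor 6, 1 gene was called lower.

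Sox9 did not go with SoxF. It was at 0.284 and 0.432 CPM in normal 1 and 2, and at 0.119, 0.275, 1.54 and 1.59 CPM in tumors 3 to 6. Tumors 3 and 4 lay below both normal libraries and tumors 5 and 6 above them, a 13.3-fold span. The difference did not pass (1.30 ± 1.10, edgeR adjusted p = 0.332), at 8 to 118 counts a library. Of 10 cartilage genes that Sox9 activates, 6 rose, none fell, 3 did not pass and Matn1 was not tested. Col2a1, Acan, Col9a1 and Col9a2 were kept by the filter on low counts only through the tumor libraries and could be tested only because tumors held more, so the count of 6 cannot be read against the 31.3% of all genes called higher. Of the 5 other genes tested, Col9a3 and Col11a1 rose, and the call of Col11a1 was lost without normal 1 (3.45, adjusted p = 0.0528). Their levels were low, with 3.05 and 4.11 CPM summed in normal lung and 6.95 to 26.8 CPM in tumors. Col9a2, a type IX collagen chain, rose 22.7-fold to 0.957 to 2.80 CPM in tumors. Without normal 1 the list had 2 genes higher, and with at least 1 CPM required in a whole group it had 1.

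Genes of the distal lung tip, where Sox9 acts in the embryo, were divided. Among 8 genes, 4 were called lower, against 32.6% of all genes, and Etv4 alone higher, a call lost without normal 1 (3.68, adjusted p = 0.142), without normal 2 (4.76, adjusted p = 0.0879) and with limma voom (adjusted p = 0.0514), and 3 did not pass (median log2 fold change -1.62). Bmp4, a ligand made by tip cells, was 36.3-fold lower and Spry2, an inhibitor of FGF signalling, 6.66-fold lower. Fgfr2, the receptor that drives branching, was at 324 and 275 CPM in normal lung and at 20.4, 31.2, 68.9 and 77.2 CPM in tumors 3 to 6. It was lowest in tumors 3 and 4, as Sox9 was, but Bmp4, Spry2 and Etv4 were each highest in tumor 4.

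**Figure D3:**
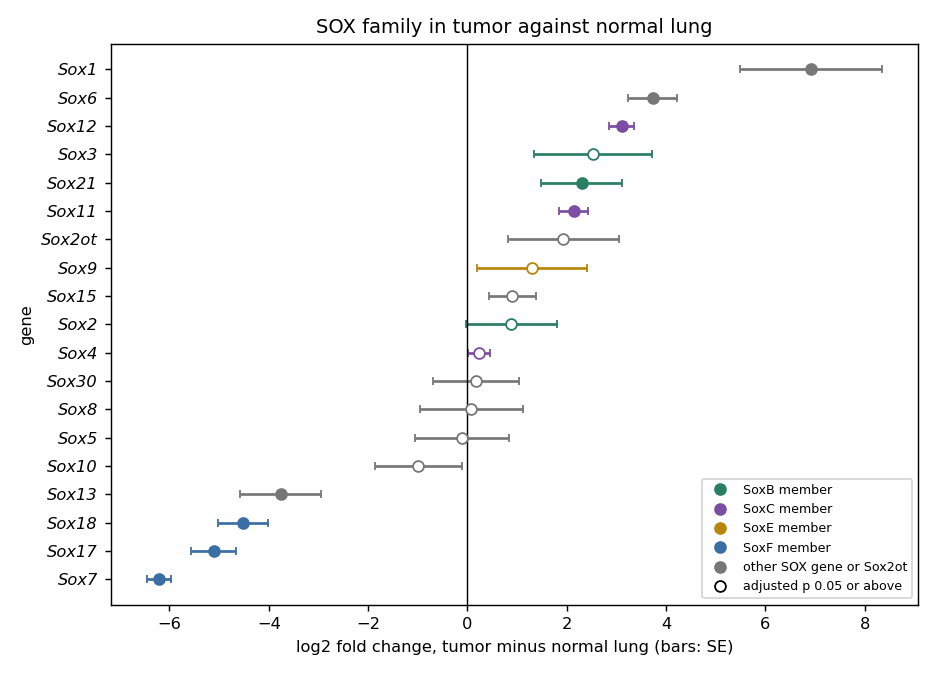
Log2 fold change of tumor over normal lung for the 10 members (colored by SOX group), for 8 other SOX genes and for Sox2ot (grey), with bars of 1 standard error. Filled points passed at an adjusted p below 0.05. Of the filled points, Sox7, Sox17, Sox18 and Sox13 lie below 0, and Sox1, Sox6, Sox12, Sox21 and Sox11 above it.

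Among the other SOX genes, those of the SoxD group moved apart. Sox6, a SoxD protein of cartilage and neuronal fate, was at 8.13 and 11.7 CPM in normal lung and 175, 65.6, 119 and 167 CPM in tumors 3 to 6. It rose 13.3-fold (3.73 ± 0.49, edgeR adjusted p = 0.000803). Sox13, also SoxD, was at 57.8 and 51.4 CPM in normal lung and 1.45, 10.6, 2.20 and 1.90 CPM in tumors 3 to 6. It was 13.6-fold lower (-3.76 ± 0.81, edgeR adjusted p = 0.00662), or -4.88 without tumor 4, which held the most. Sox5, the third SoxD gene, ran from 2.60 CPM in tumor 6 to 31.5 CPM in tumor 5 with normal lung at 15.1 and 13.1 CPM, and did not pass. Sox8, Sox10, Sox15 and Sox30 were below 1 CPM in every library and did not pass, and Sox14 had 1 count in all. Sox10 is a factor of Schwann cells. Of the 7 Schwann cell markers tested 1 fell, 6 did not pass and none rose. Among all genes tested 32.6% were lower and 31.3% higher, so few of these markers were called. Without tumor 6 or with limma voom 3 fell.

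Per length of exon, the order of the SOX genes differed between the groups. These levels are CPM per kilobase of merged GENCODE M21 exons. In normal lung the order was Sox18 (24.4), Sox7 (15.7), Sox13 (12.7), Sox4 (11.9), Sox2 (8.45), Sox11 (6.12), Sox17 (5.70) and Sox12 (1.25). Among these 8 genes, neighbours in that order did not overlap between libraries except Sox13 and Sox4. In tumors the order was Sox11 at 26.9 ± 7.49 (SD, n = 4), Sox1 at 16.1 ± 5.13, Sox2 at 15.6 ± 10.1, Sox4 at 14.0 ± 2.79, Sox12 at 10.7 ± 1.97 and Sox6 at 8.87 ± 3.39. Each of these neighbours overlapped the next in range, and Sox6 did not overlap Sox18, which followed at 1.05 ± 0.616. SoxF genes made up 27.5%, 17.7% and 6.42% of the summed level of the 19 SOX genes in normal lung, for Sox18, Sox7 and Sox17. In tumors these shares were 1.08%, 0.217% and 0.169%, while Sox11 took 27.6%.

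**Figure D4:**
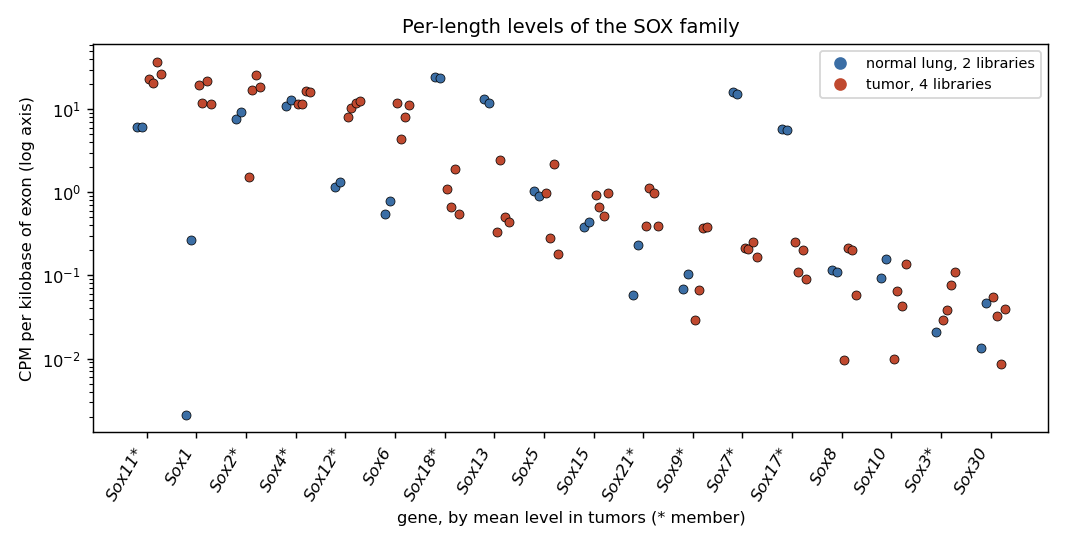
CPM per kilobase of exon on a log axis for the SOX genes, ordered by their mean in tumors, with members starred. Points are libraries, and the 0 of Sox3 in normal 1 and Sox14 are not drawn. Sox11, Sox1, Sox2, Sox4, Sox12 and Sox6 lead in tumors, and Sox18 and Sox7 lead in normal lung.

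The genes whose pattern over the 6 libraries was most like that of a member were sought among 10610 genes with a mean log2 CPM of at least 3. Likeness was the root mean square difference of log2 CPM after each gene was centered on its mean. Nearest to Sox2 were Hoxb4 (0.27), Hoxb3 (0.53) and Slc16a12 (0.63). Nearest to Sox11 were Atad2 (0.10), Nptxr (0.12) and Ska2 (0.15), and nearest to Sox18 were Arhgap31 (0.24), Pdgfra (0.24) and Ano1 (0.26). For Sox9 they were Tshz1 (0.49), Meis2 (0.61) and Plekhh2 (0.62). These are descriptions of 6 libraries that fall into 2 groups, and they carry no test.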

How the data were processed

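The authors deposited raw gene counts per gene symbol, made with TPMCalculator per the labels. Tools in the submitters' processing notes, with no role or order, include the aligner STAR 2.5.4a. The notes also list Trimmomatic 0.36 and Trim Galore, and the build mm9. RNA was poly(A)-selected per the labels' protocols, with annotation and strand setting of the counting not given in the sources used here. Of counts from 1 to 10, 61.2% were even.

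Samples were grouped by title, as 2 normal and 4 tumor libraries all labelled batch 1, each from its own mouse. Within groups, pairs of libraries differed by more than sampling noise. All 22477 rows entered edgeR 4.0.16 (R 4.3.3), with its default filter by group (minimum count 10, total 15), TMM scaling, tissue as the only term and Benjamini-Hochberg adjustment over 18027 genes. The test was checked on simulated counts with far fewer changed genes than here and none of them at low levels. That check does not cover a shift as wide as this one or changes in genes near the floor. Alternatives were other scalings and filters, DESeq2 1.42.0, limma 3.58.1 voom, removal of non-coding and histone rows, and leaving out each library. Halved counts were added after the data were seen. The members and the 12 gene lists were chosen with earlier results of these data known. Named were all SOX genes, up to 3 genes of every list that rose and 3 that fell, by p, and 3 genes of like pattern for 4 members, and the text gives a part. Coordinates and lengths are of GRCm38, not of the authors' mm9, and were used for sequences, overlaps and per-length levels only. A 95% interval or a floor of 3 counts covers counting error only, and is too narrow if fragments were counted more than once, which the share of even counts leaves possible.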

Additional observations from a re-analysis of the deposited data

Results flagged for a closer look

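Of 68 genes named by rule, 3 had 1 tumor far from the other 3, by the gap to its nearest neighbour relative to the range (Dixon's test at 95%). Sox13 stood at 10.6 CPM in tumor 4, Pdgfra at 38.2 CPM in tumor 5 and Ska2 at 77.0 CPM in tumor 5. Chance flags about 1 in 20 such groups.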

How the results depend on the processing

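Each of Sox11, Sox12, Sox7, Sox17 and Sox18 was called in the same direction in all 15 alternatives. Of 145 values of the 10 members under alternatives, 140 kept their direction and side of the threshold, 3 lost the call (Sox21, without normal 1, tumor 4 or tumor 5), 2 gained it (Sox2 without tumor 3, Sox3 without normal 2) and none changed sign. The gain of Sox3 came with 0 normal counts left, for a gene kept by the filter only through the tumor libraries. Sox3 could not be tested with at least 1 CPM required in a group, with halved counts, or without tumor 5 or 6. Sox9 could not with that CPM filter. Leaving out 1 library gave 7651 to 12079 genes called, 3373 to 5912 of them higher, with the lowest values without normal 1, and 3740 higher without normal 2. It gave a median log2 fold change of 1.58 to 2.66 for SoxB and SoxC, and 6.38 to 7.53 for that median minus the median of SoxF and Sox9 (7.04 over all libraries). With 1 normal library, that library is assumed to vary as the tumors do. Upper quartile scaling moved the median log2 fold change of all genes from 0.02 to 0.14. Changes of sign concerned genes that did not pass. Sox5, at -0.11, was 0.017 with upper quartile factors and -1.02 to 0.33 with 1 library left out. Sox8, at 0.074, was -0.65 with limma voom and -0.34 to 0.47 with 1 library left out. Sox30, at 0.17, was -0.47 to 1.27 with 1 library left out. Slc16a12, at -0.050, was 0.00301 with RLE factors, 0.060 with upper quartile factors, 0.035 with the CPM filter, 0.00308 with DESeq2, 0.031 with non-coding and histone rows removed and -0.28 to 0.28 with 1 library left out. Plekhh2, at 0.24, was -0.11 with limma voom and -0.14 to 0.58 with 1 library left out. The cause of these changes was not tested. No paired analysis was possible because each library came from its own mouse. Depth limits Sox3, with 0 to 15 counts a library.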
